A study of Mus musculus with 2 samples.

Results

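The 10 genes described here mark eosinophils, basophils and mast cells, the granulocytes of allergic and antiparasite responses. They were Prg2, Prg3, Epx, Ear1, Ear2, Alox15, Cpa3, Mcpt8, Ms4a2 and Fcer1a. They were taken by symbol from a table of 35798 rows, and each of the 10 had a row of its own. The genes were chosen by their FPKM values in these same libraries, so the values below are a description and no test was made on them.

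The RNA came from marrow cells that lacked CD45, CD31 and Ter119 on the sorter and carried green fluorescent protein under nestin regulatory sequence, which marks stromal cells around blood stem cells. One library came from adult C57BL/6 mice of genotype Nes-gfp;Mx1-cre;JAK2-V617F, whose mutant kinase drives a myeloproliferative neoplasm. The other came from adult C57BL/6 control littermates labelled Nes-gfp. Both groups received pIpC, which induces Mx1-cre through interferon, and cells were collected 6 weeks later. Mx1-cre is active in blood cells and in other tissues. The control label names neither Mx1-cre nor the JAK2 allele, so effects of Cre and of the mutation cannot be told apart. Cells of 3 animals went into each of the 2 libraries, 1 for each genotype. No value below therefore has a replicate error, and a difference is one between pools. Values are FPKM, fragment counts scaled by transcript length and by library depth.

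Eosinophils store cationic proteins in their granules, among them major basic proteins, a peroxidase and ribonucleases, which are released against parasites. Basophils and mast cells share the high-affinity IgE receptor, whose cross-linking empties granules of histamine and proteases. These lineages arise in the bone marrow from progenitors that depend on GATA and C/EBP transcription factors, and their blood-derived cells normally carry CD45, one of the markers sorted against.

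The 10 genes did not move as 1 group. The major basic protein genes Prg2 and Prg3 and the lipoxygenase gene Alox15 were lower in the JAK2 V617F pool, while the mast cell and basophil genes Cpa3, Mcpt8, Ms4a2 and Fcer1a had higher values there. Counting raw FPKM, 6 of the 10 had the higher value in the JAK2 V617F library, 3 had the lower value, and Ear1 was listed at 0 in both. Differences are given as log2((JAK2 V617F FPKM + 1)/(control FPKM + 1)), which understates the change of low genes, and a gene was called at 2-fold or more on this scale. Of the 10, 7 reached 1 FPKM in a library and 3 (Epx, Ear1 and Fcer1a) did not. Among the 7, Cpa3 and Ear2 (2 genes) were called higher, and Prg2, Alox15 and Prg3 (3 genes) lower. Over all 15425 rows at 1 FPKM or more, 13.7% were called higher and 11.3% lower. The median log2 ratio of the 7 was 0.65, against -0.03 over all rows, and the 7 ratios ran from -4.53 to 2.84. The genes were chosen with this contrast in view, so nothing is read from these counts. In bulk samples fewer cells of a type and less RNA per cell cannot be told apart.

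**Figure D1:**
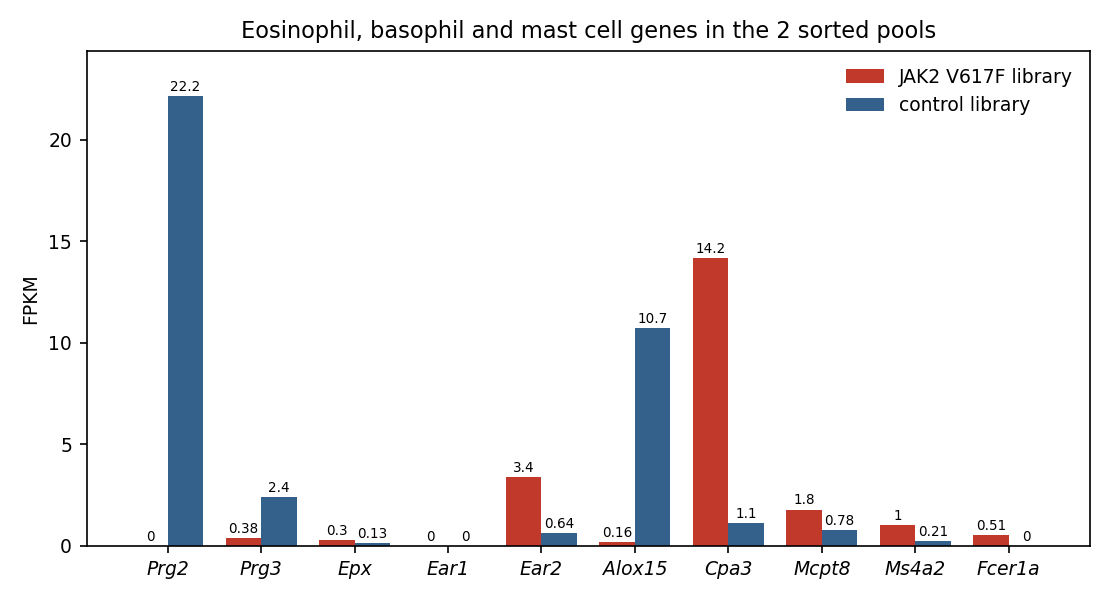
FPKM of each gene (vertical axis) in the JAK2 V617F library (red, left bar) and the control library (blue, right bar), 1 pooled library each, with the value above each bar. Prg2 and Alox15 are tall in the control library alone, and Cpa3 is tall in the JAK2 V617F library alone.

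Low values rest on few reads. The low FPKM values of single-transcript genes fell into steps, from which 1 fragment was estimated to be worth 0.151 FPKM in the JAK2 V617F library and 0.176 FPKM in the control library on a transcript of 1 kb effective length. Fragment numbers below come from these steps and are estimates. For genes with several annotated transcripts they assume the longest coding one. In 8 of the 10 genes the annotation holds more than 1 transcript, Prg2 and Ear2 being the 2 with a single one. An interval is given for Ear2 and not for Prg2, whose listed 0 may not be a count.

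Prg2 encodes major basic protein, the main constituent of the eosinophil granule core. It was listed at 0 FPKM in the JAK2 V617F pool and was at 22.2 FPKM in the control library. The control value stands for about 83 estimated fragments on a transcript of 838 bases, and 3 fragments would have been 0.687 FPKM in the JAK2 V617F library. It was the highest of the 10 genes in the control library, above 86.4% of all rows there. The log2 ratio was -4.53, a value set by the pseudocount. An exact 0 in this table can also be a failed estimate, and the files do not mark such cases. Among 4695 protein-coding rows at 20 FPKM or more in the control library, 3 were listed at 0 in the JAK2 V617F library: Uck2, a pyrimidine salvage kinase at 827 FPKM in the control, Ropn1 at 36.3 FPKM, and Prg2. Conversely, 2 of 4453 such rows of the JAK2 V617F library were listed at 0 in the control library. Some rows of ribosomal proteins, taken by symbol, were also listed at 0. Of 78 protein-coding rows of ribosomal proteins, 1 was at 0 in the JAK2 V617F library and 2 in the control library. These rows may include paralogues that not every cell uses, and the cause of their 0 values was not tested. Of 20 housekeeping genes, picked after the data were seen, 0 were at 0. It was not tested whether the 0 of Prg2 is such a failed estimate.

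Prg3 encodes the second major basic protein, a paralogue of Prg2. It was at 0.380 FPKM in the JAK2 V617F library and 2.38 FPKM in the control library, about 2 and 10 estimated fragments, with a log2 ratio of -1.29. The pair lie 4582 bases apart on the same strand, Prg2 at chr2:84980461-84983632 and Prg3 at chr2:84988215-84993886 in GRCm38. Their coding sequences are identical at 434 of 654 aligned bases (66.4%), so reads of the pair are separable over most of their length. The flanking genes did not share the difference. Slc43a3, a solute carrier gene on one side, was at 346 FPKM in the JAK2 V617F library and 318 FPKM in the control library. Ssrp1, a histone chaperone gene on the other side, was at 150 and 131 FPKM in the same order of libraries.

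Epx, which encodes the eosinophil peroxidase, stayed near the detection limit in both pools. It was at 0.297 FPKM in the JAK2 V617F library and 0.134 FPKM in the control library, about 5 and 2 estimated fragments. In the control pool Epx thus had about 2 fragments where Prg2 had about 83. Mpo, its neutrophil relative, was at 663 FPKM in the JAK2 V617F library and 577 FPKM in the control library.

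Ear1 and Ear2 encode eosinophil-associated ribonucleases of the RNase A superfamily, and Ear2 is also transcribed in mouse monocytes. Ear1 was listed at 0 FPKM in both libraries. Ear2 was at 3.38 FPKM in the JAK2 V617F library and 0.642 FPKM in the control library, about 12 and 2 estimated fragments. Its log2 ratio was 1.41. The ratio of length-scaled estimated fragments was 5.14, with an exact (Clopper-Pearson) 95% interval of 1.14 to 47.3 that covers counting error only. The interval takes rounded estimates as counts, and it is no test because the gene was chosen by these values. The protocol names no molecular identifiers, and amplified fragments are not independent molecules. Ear2 thus lay on the opposite side of 0 from Prg2 and Prg3. The assignment of reads within this family is uncertain. The coding sequences of Ear1 and Ear2 differ at 20 of 465 aligned bases, and that of Ear2 is 97.01% identical to Ear10, which was listed at 0 in both libraries. The first 150 coding bases of the pair are printed to show how little separates their reads. Ear1 is at chr14:43819260-43819409 on the minus strand and Ear2 at chr14:44102887-44103036 on the plus strand (GRCm38, GENCODE vM21), and capitals mark the 5 bases at which they differ.
Ear1: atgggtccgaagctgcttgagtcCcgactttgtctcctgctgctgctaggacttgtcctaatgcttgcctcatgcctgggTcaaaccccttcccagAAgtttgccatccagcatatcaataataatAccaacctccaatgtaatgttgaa
Ear2: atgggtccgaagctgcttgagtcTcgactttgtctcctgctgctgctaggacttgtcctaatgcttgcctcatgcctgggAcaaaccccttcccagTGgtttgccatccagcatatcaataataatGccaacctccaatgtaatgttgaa
A read of this stretch that covers none of the 5 capitals could come from either gene. The row of Ear1 also spans Ear pseudogenes and a long noncoding RNA on the other strand. Ear2 overlaps the noncoding gene Gm49101 on the opposite strand, and the sources used here do not say whether the counting used strand.

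The wider ribonuclease list gave few detected members. Of 14 entries, Ear1 and Ear2 included, 8 had a row of their own, 5 of these were listed at 0 in both libraries, and 3 reached 1 FPKM. Ear1 was among the 5 and Ear2 among the 3. Ear5 was at 1.54 FPKM in the JAK2 V617F library and listed at 0 in the control library. Rnase6, a related ribonuclease that is not restricted to eosinophils, was at 0.521 FPKM in the JAK2 V617F library and 6.18 FPKM in the control library (log2 ratio -2.24).

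Alox15 encodes the 12/15-lipoxygenase, which oxygenates arachidonic acid and is found in eosinophils and in resident macrophages. It was at 0.165 FPKM in the JAK2 V617F library and 10.7 FPKM in the control library, about 2 and 136 estimated fragments. Its log2 ratio of -3.33 was the second lowest of the 10 after Prg2. The gene lies at chr11:70344152-70352031 beside other lipoxygenase genes. Its neighbour Alox12e was at 0.263 FPKM in the JAK2 V617F library and listed at 0 in the control library, and Alox12 was at 0.773 and 1.05 FPKM in the same order.

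Genes of the same lipid pathway differed in both directions. Of 16 lipoxygenase and eicosanoid genes, Alox15 included, 11 reached 1 FPKM. Among the 11, 2 were called higher and 5 lower, Alox15 being among the 5 (median log2 ratio -0.52). Over all rows, 13.7% were called higher and 11.3% lower. Alox5, the leukotriene-forming lipoxygenase, was at 9.85 FPKM in the JAK2 V617F library and 1.80 FPKM in the control library. Ptgs1, a cyclooxygenase gene, was at 10.995 FPKM in the JAK2 V617F library and 2.23 FPKM in the control library. Ptgds, a prostaglandin D synthase gene, was at 2.85 FPKM in the JAK2 V617F library and 13.0 FPKM in the control library. Ltc4s, which makes leukotriene C4, had a listed value of 0 in the JAK2 V617F library and was at 1.86 FPKM in the control library. Alox5ap, the activating protein of Alox5, was at 59.5 and 122 FPKM (log2 ratio -1.03), a call that was lost under each of the 3 other scalings of the libraries. Ptgs2, named after its value was seen, was the remaining gene called lower, at 0.377 FPKM in the JAK2 V617F library and 2.19 FPKM in the control library. Both Alox15 and its pathway partners are also used by macrophages, whose markers are given further on.

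**Figure D2:**
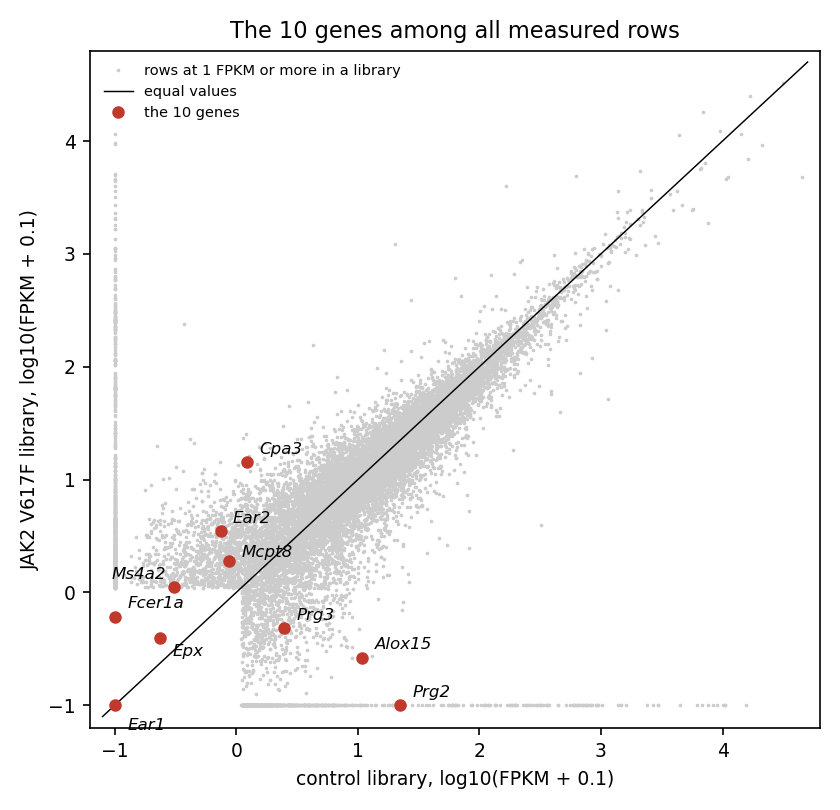
Each grey point is a row at 1 FPKM or more in a library, with control log10(FPKM + 0.1) on the horizontal and JAK2 V617F log10(FPKM + 0.1) on the vertical axis, 1 pooled library each. Red points are the 10 genes. Cpa3 and Ear2 lie above the line of equal values and Prg2, Alox15 and Prg3 below it, and points on the left and lower edges are rows listed at 0 in a library.

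Cpa3 encodes mast cell carboxypeptidase A, a granule protease that mast cells and basophils share. It was at 14.2 FPKM in the JAK2 V617F library and 1.12 FPKM in the control library, about 119 and 8 estimated fragments. The FPKM ratio was 12.7 and the log2 ratio 2.84, the highest of the 10. In the JAK2 V617F library it stood above 82.2% of all rows, and in the control library above 62.6%. Cpa3 is at chr3:20215617-20242181 and also hosts a miRNA gene. Cpb1, a pancreatic carboxypeptidase gene 6083 bases away, was at 1.42 FPKM in the JAK2 V617F library and listed at 0 in the control library.

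Mcpt8 encodes a granule protease that in mice marks basophils. It was at 1.78 FPKM in the JAK2 V617F library and 0.778 FPKM in the control library, about 8 and 3 estimated fragments, with a log2 ratio of 0.65 that did not reach 2-fold. Mcpt8 sits in the protease cluster of chromosome 14. Its neighbour Ctsg, the neutrophil protease cathepsin G, was at 89.5 FPKM in the JAK2 V617F library and 74.5 FPKM in the control library. Mcpt2, Mcpt4, Gzmd and Gzme of the same cluster, also within 50 kb, were listed at 0 in both. Further off, Mcpt9 was at 0.162 FPKM in the JAK2 V617F library and 0.742 FPKM in the control library. Gzmb was at 1.73 FPKM and listed at 0 in the same order, and Cma1, Cma2 and Mcpt1 were listed at 0 in both.

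The IgE receptor genes had higher values in the JAK2 V617F pool, at levels close to the detection limit. Ms4a2 encodes the beta chain of the receptor. It was at 1.02 FPKM in the JAK2 V617F library and 0.206 FPKM in the control library, about 15 and 3 estimated fragments, with a log2 ratio of 0.74. Fcer1a encodes the alpha chain, which binds IgE. It was at 0.508 FPKM in the JAK2 V617F library, about 3 estimated fragments, and listed at 0 in the control library. Fcer1g, the signalling chain that this receptor shares with other receptors of many leukocytes, was far more abundant, at 112 and 69.1 FPKM in the same order (log2 ratio 0.69). Together Cpa3, Mcpt8, Ms4a2 and Fcer1a summed to 17.5 FPKM in the JAK2 V617F library and 2.10 FPKM in the control library. The granule genes Prg2, Prg3, Epx, Ear1 and Ear2 summed to 4.05 FPKM in the JAK2 V617F library and 25.3 FPKM in the control library. Single genes made up most of these sums. Cpa3 alone gave 14.2 FPKM of the 17.5 FPKM, and Prg2 alone gave 22.2 FPKM of the 25.3 FPKM. The listed 0 of Prg2 in the JAK2 V617F library may be a failed estimate. The other granule genes did not share a direction, with Prg3 lower and Epx and Ear2 higher in the JAK2 V617F library. With 1 library each, the order of levels within a library has no spread to be read against.

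Cpa3, Ms4a2 and Fcer1a had higher values in the JAK2 V617F pool and Prg3 a lower one. The regions before the start of these genes are printed below. Each is 250 bases, 5′ to 3′ towards the gene, from RefSeq (GRCm38.p6), and capitals mark GATAA on either strand, the core bound by GATA factors. The table held an entry for 8 of the 10 genes, all but Prg2 and Alox15. Cpa3 is chr3:20242182-20242431 (minus strand), Ms4a2 chr19:11623720-11623969 (minus), Fcer1a chr1:173227230-173227479 (minus) and Prg3 chr2:84987965-84988214 (plus).
Cpa3: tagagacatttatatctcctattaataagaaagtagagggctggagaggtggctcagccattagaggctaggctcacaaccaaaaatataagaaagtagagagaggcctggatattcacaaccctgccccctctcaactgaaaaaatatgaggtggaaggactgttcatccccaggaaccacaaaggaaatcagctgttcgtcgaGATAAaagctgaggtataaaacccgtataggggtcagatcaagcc
Ms4a2: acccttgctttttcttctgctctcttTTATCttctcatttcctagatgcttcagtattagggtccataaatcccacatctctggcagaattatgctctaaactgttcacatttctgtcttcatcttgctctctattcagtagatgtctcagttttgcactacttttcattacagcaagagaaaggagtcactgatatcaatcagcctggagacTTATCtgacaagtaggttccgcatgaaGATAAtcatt
Fcer1a: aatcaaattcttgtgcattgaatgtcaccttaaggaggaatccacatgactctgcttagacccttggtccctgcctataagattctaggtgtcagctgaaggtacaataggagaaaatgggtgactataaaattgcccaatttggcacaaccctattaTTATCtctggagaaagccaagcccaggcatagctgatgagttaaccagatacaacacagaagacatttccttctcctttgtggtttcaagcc
Prg3: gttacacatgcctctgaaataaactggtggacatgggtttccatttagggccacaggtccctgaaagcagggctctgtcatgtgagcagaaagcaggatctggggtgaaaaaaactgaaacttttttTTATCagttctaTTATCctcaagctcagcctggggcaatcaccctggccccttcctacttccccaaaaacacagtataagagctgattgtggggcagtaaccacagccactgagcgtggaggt
The first base of the GATAA match lay at -45 from the start in Cpa3, at -224, -37 and -10 in Ms4a2, at -92 in Fcer1a, and at -123 and -111 in Prg3. Among these windows Prg3 is the only one of a gene called lower, since Prg2 and Alox15, the other 2 genes called lower, had no entry. Over the window of 250 bases before and 50 after the start, 6 of the 8 genes held GATAA, in Ear1 and Ear2 after the start, against 25.8% of 27025 promoters. Epx and Mcpt8, which also had higher values in the JAK2 V617F pool, held no GATAA. The printed regions are thus those with GATAA before the start. TTGCNNAA, a C/EBP-type motif, was in 3 of the 8 (Ear1, Ear2 and Fcer1a), against 10.8% of promoters. GAGGAA, a PU.1-type motif, was in 2 (Mcpt8 and Fcer1a), against 28.3% of promoters. The promoters were not matched to the 8 genes in base composition, so these counts are not read as enrichment. Both strands were searched, no match of 1 motif overlapped a match of another, and a match is a description of sequence and not a binding site. The near-identical Ear1 and Ear2 count as a pair that shares its sequence, with 2 differences in 248 aligned bases before the start.

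Further genes of the 3 lineages ranged from a listed 0 to 172 FPKM (Srgn, in the JAK2 V617F library). Of 9 eosinophil surface and receptor genes with a row of their own, 4 reached 1 FPKM, with a median log2 ratio of -0.40. Of the 4, 1 was called higher and 1 lower, beside 13.7% called higher and 11.3% lower over all rows. The eotaxin receptor gene Ccr3 was at 0.0486 FPKM in the JAK2 V617F library and listed at 0 in the control library, and the interleukin-5 receptor gene Il5ra was at 0.0958 FPKM and listed at 0. Siglecf, listed under its older symbol Siglec5, was at 0.723 FPKM in the JAK2 V617F library and 2.15 FPKM in the control library (-0.87). Il1rl1, the interleukin-33 receptor gene found on mast cells and several other cells, was the one gene called lower, at 15.5 and 46.0 FPKM in the same order. Csf2ra, a receptor chain for granulocyte-macrophage colony-stimulating factor, was called higher, at 11.5 FPKM in the JAK2 V617F library and 5.12 FPKM in the control library. Csf2rb, the shared receptor chain of that family, was at 6.66 and 6.34 FPKM.

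Basophil genes numbered 14, among them Mcpt8, Ms4a2 and Fcer1a of the 10 genes. Of the 14, 4 reached 1 FPKM, Mcpt8 and Ms4a2 included, and 1 was called higher (over all rows, 13.7%). That gene was Prss34, a basophil protease, at 1.68 FPKM in the JAK2 V617F library and listed at 0 in the control library. Hdc, the histamine-forming enzyme of basophils, mast cells and some other myeloid cells, was at 14.01 FPKM in the JAK2 V617F library and 15.6 FPKM in the control library. Its log2 ratio of -0.14 turned positive once the FPKM sums of the libraries were made equal. Cd200r3, another basophil and mast cell gene, had a listed value of 0 in the JAK2 V617F library and was at 0.911 FPKM in the control library.

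Proteases of mature mast cells were at 0 or below 1 FPKM, apart from Cpa3 and Gzmb. Of 18 mast cell genes, 8 were listed at 0 in both libraries, among them the chymase genes Cma1 and Mcpt4 and the receptor gene Mrgprb2, and 7 reached 1 FPKM. The tryptase genes Tpsab1 (0.353 FPKM in the JAK2 V617F library, listed at 0 in the control library) and Tpsb2 (listed at 0 in the JAK2 V617F library, 0.709 FPKM in the control library) stayed below 1 FPKM. Of the 7, 2 were called higher, Cpa3 and the granzyme gene Gzmb (1.73 FPKM in the JAK2 V617F library, listed at 0 in the control library). The share called higher over all rows was 13.7%. Kit, the stem cell factor receptor of mast cells and of haematopoietic progenitors, was at 48.5 FPKM in the JAK2 V617F library and 69.0 FPKM in the control library. The FPKM of Cpa3 was 29.2% of that of Kit in the JAK2 V617F library and 1.62% in the control library. Slc18a2, the histamine-loading transporter, was at 4.05 and 2.55 FPKM, and Srgn, the granule proteoglycan serglycin of most blood cells, at 172 and 153 FPKM, both in the same order.

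The list of IgE receptor signalling held 14 genes, among them the receptor chains Fcer1a, Ms4a2 and Fcer1g. Of these 14, 13 reached 1 FPKM, Ms4a2 and Fcer1g included. Among the 13, 2 were called higher, 0 lower and 11 had a ratio above 0. Their median log2 ratio was 0.69, the value of Fcer1g. Over all rows at 1 FPKM or more, 13.7% were called higher and 11.3% lower, and the median was -0.03. The called genes were the adaptor gene Lat (2.14 FPKM in the JAK2 V617F library, 0.384 FPKM in the control library) and the Src-family kinase gene Lyn (19.3 and 8.01 FPKM). Plcg1 (27.0 and 13.4 FPKM) was past 2-fold under the 3 other scalings and Lcp2 (18.6 and 9.61 FPKM) under 1 of them. These molecules serve other antigen and Fc receptors as well. Among 19 lineage transcription factors, 5 were called higher and 0 lower, with a median of 0.35, to be read beside the same shares over all rows. Cebpe, needed for granulocyte maturation including that of eosinophils, was at 5.35 FPKM in the JAK2 V617F library and listed at 0 in the control library. Id1 was at 17.4 and 2.55 FPKM, Cebpd at 18.5 and 6.86 FPKM, and Id2 at 6.996 and 2.72 FPKM, in the same order. Gata2, a factor of mast cells, basophils and stem cells, was named after its value was seen and was the fifth, at 16.4 and 7.21 FPKM. Gata1, which eosinophil, mast and erythroid cells share, was at 50.3 and 66.3 FPKM, likewise named after its value was seen. Ikzf1, a factor of most blood lineages, was the most abundant of the list, at 306 and 252 FPKM. Of 13 growth factors and chemoattractants, 2 reached 1 FPKM. Ccl11, which encodes the eosinophil attractant eotaxin, was at 10.6 FPKM in the JAK2 V617F library and 16.4 FPKM in the control library, and Kitl, the ligand of Kit, at 20.1 and 23.7 FPKM. Il5 stayed at 0.114 and 0.131 FPKM, and Il3 and Csf2 were listed at 0 in both.

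**Figure D3:**
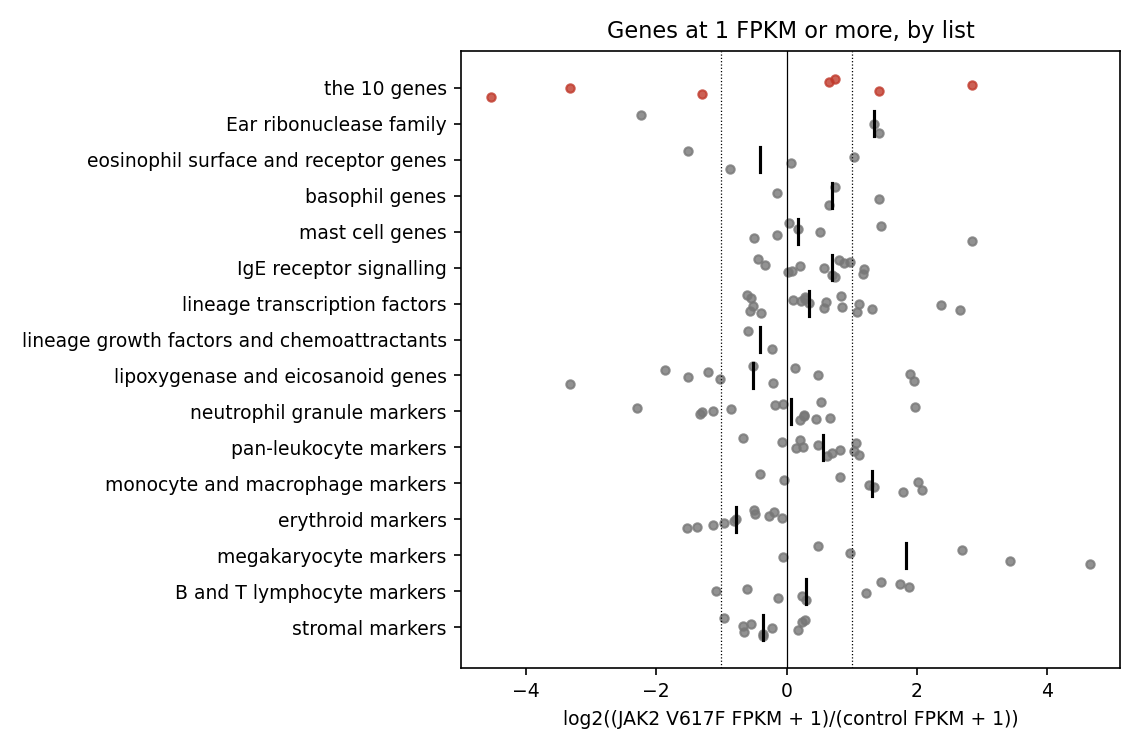
Log2((JAK2 V617F FPKM + 1)/(control FPKM + 1)) on the horizontal axis for genes at 1 FPKM or more in a library, by list, from 2 pooled libraries. Points are genes, black bars are list medians (none is drawn for the 7 genes of the top line, in red) and dotted lines mark 2-fold. The 7 red points run from -4.53 to 2.84, with 3 to the left of the lower dotted line and 2 to the right of the upper one.

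Transcripts of other blood cells were present in both pools and differed between them in more than 1 direction. All paired values of this paragraph are given with the JAK2 V617F library first. The counts of called markers stand beside shares over all rows of 13.7% called higher and 11.3% lower. The 12 pan-leukocyte markers summed to 562 and 426 FPKM, with 3 called higher and 0 lower. Laptm5, a lysosomal membrane protein gene, and Fcer1g were the most abundant, Laptm5 at 183 and 165 FPKM, while Ptprc, the gene of CD45, was at 8.79 and 5.38 FPKM. Monocyte and macrophage markers summed to 236 and 260 FPKM, sums that Lyz2, the lysozyme gene (157 and 207 FPKM), and Ly6c2 (38.3 and 39.6 FPKM) dominated. The less abundant markers at 1 FPKM or more differed the other way, with 5 of the 8 markers at that level called higher and 0 lower. Those 5 were Cd68 (13.2 and 3.14 FPKM), Csf1r, the receptor of macrophage colony-stimulating factor (7.41 and 2.49 FPKM), the complement genes C1qb (4.20 and 0.233 FPKM) and C1qc (3.75 and 0.869 FPKM), and Cd14 (3.05 FPKM and listed at 0). C1qa was listed at 0 in both libraries, and Mrc1 was at 0.0631 and 0.401 FPKM. Fcgr1 was at 0.209 and 0.891 FPKM. Beside the 5 called markers, Ccr2 and Emr1 had higher values in the JAK2 V617F library. Lyz2, Ly6c2, Mrc1 and Fcgr1 had lower values there, as did Alox15. Whether macrophage content bears on the value of Alox15 was not tested.

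For the counts that follow, the shares over all rows were again 13.7% called higher and 11.3% lower. Neutrophil granule markers summed to 2665 FPKM in the JAK2 V617F library and 2657 FPKM in the control library, with 1 of 14 called higher and 4 lower. The most abundant were Mpo and the elastase gene Elane, the second at 549 and 402 FPKM in the same order, which also holds for the pairs that follow. Erythroid markers summed to 1832 and 3445 FPKM, with 3 of 11 called lower, led by the globin genes Hbb-b1 (379 and 1096 FPKM) and Hbb-b2 (169.95 and 442 FPKM). Megakaryocyte markers summed to 61.9 and 13.8 FPKM, with 3 of 6 called higher. The platelet gene Pf4 was at 24.1 FPKM in the JAK2 V617F library and listed at 0 in the control library, and Vwf, the von Willebrand factor gene, was at 8.08 and 5.53 FPKM. B and T lymphocyte markers summed to 189 and 137 FPKM, with 4 of 9 called higher and 1 lower. Nkg7, a gene of cytotoxic lymphocytes, was at 76.6 and 27.3 FPKM, and Igll1, a surrogate light chain gene of B cell precursors, at 26.8 and 41.5 FPKM. Stromal markers summed to 2398 FPKM in the JAK2 V617F library and 3976 FPKM in the control library, and 0 of 10 were called. The collagen gene Col1a1 was at 1436 and 2784 FPKM (log2 ratio -0.95) and the chemokine gene Cxcl12 at 694 and 891 FPKM, while Nes, whose regulatory sequence drives the sorting reporter, was at 3.00 and 4.84 FPKM. The part of these shifts in the values of the 10 genes was not tested. Pecam1, the gene of CD31, was at 19.0 FPKM in the JAK2 V617F library and 17.1 FPKM in the control library. Jak2 was at 29.9 and 24.5 FPKM, which does not check the genotype label because the table lists the transgene nowhere separately.

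The direction of the 5 called genes could not change under the pseudocounts and scalings tried, so only the size of a ratio is informative here. A pseudocount added to both values cannot change the sign, and the scalings multiplied the JAK2 V617F values by only 1.07 to 1.13. Prg2 ranged from -7.80 to -2.44, Alox15 from -5.35 to -1.61 and Cpa3 from 1.65 to 3.55 on the log2 scale, all 3 past 2-fold throughout. Prg3 ranged from -2.37 to -0.46 and Ear2 from 0.57 to 2.23, both within 2-fold at a pseudocount of 5 FPKM.

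**Figure D4:**
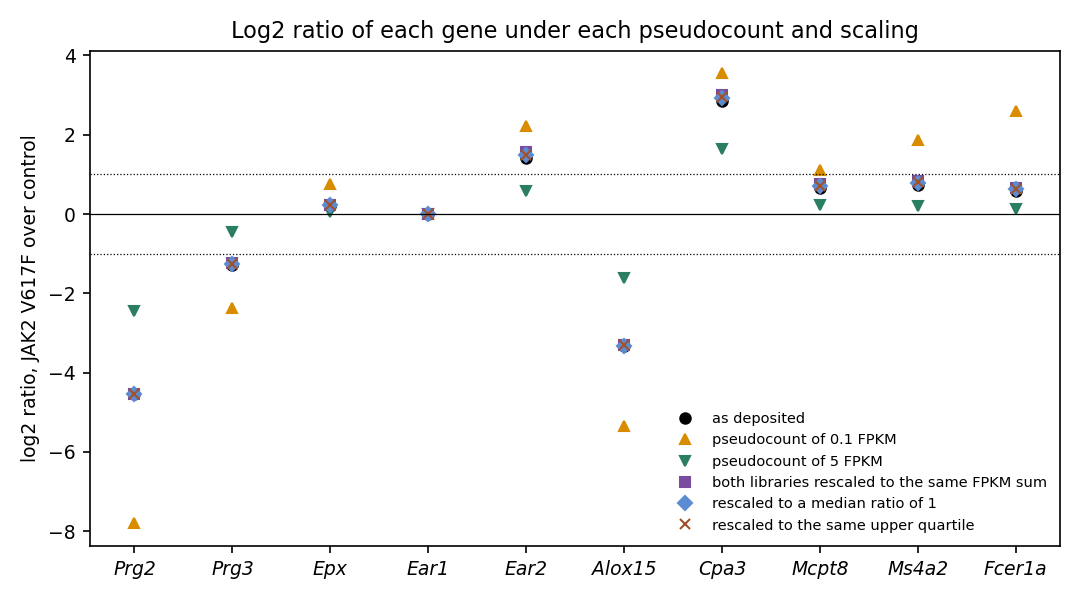
Log2 ratio of JAK2 V617F over control (vertical axis) for each gene under 3 pseudocounts and 3 rescalings of the libraries, with dotted lines at 2-fold, from 2 pooled libraries. Prg2 and Alox15 stay below the lower dotted line and Cpa3 above the upper one for every marker, while Mcpt8, Ms4a2 and Fcer1a lie above the upper line for the pseudocount of 0.1 FPKM alone.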

How the data were processed

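RNA of 2 pooled libraries was amplified from 2-3 ng with the Ovation RNA-Seq System v2 and sequenced on a Genome Analyzer IIx, per the labels' protocols. The deposited values are FPKM computed by the authors. The submitters' processing notes name GRCm38 as the build and Cufflinks, TopHat2 2.0.7, cutadapt 1.2.1 and Bowtie2 2.0.6 as tools. Which annotation release was used, whether strand was used and how libraries were scaled is not given in the sources used here. Locus starts count from 0 in the table and from 1 here.

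Python 3.11.15, pandas 2.3.3 and Biopython 1.88 were used. Log2 ratios used a pseudocount of 1 FPKM, and rows at 1 FPKM or more in a library were counted. With 1 library per genotype no test between genotypes was made. Fragments were estimated from 5569 single-transcript genes of GENCODE vM21, with transcript length less 180 nt, an offset picked from 0 to 300 nt for the sharpest lowest step. Of genes below 3.5 estimated fragments, 80.8% in the JAK2 V617F library and 77.7% in the control library lay within 0.2 of a whole number, partly by construction. The steps put the depth at about 6633843 and 5685634 fragments, JAK2 V617F first. The step search was tested on simulated data. Of the rows, 401 name several genes and were not used for list members. The table's 10 genes, the gene lists, the filters and the alternatives were chosen with earlier results of these data known. Beyond the 10 genes, those named in a list are the 4 with the largest change and the 1 with the highest mean. For lists of other cell types they are the 2 with the highest mean, and others are said to be named after their values were seen or stand as markers, such as the macrophage genes called, or neighbours. Protein identity between related genes was planned and not run, and coding sequences were compared in its place.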

Additional observations from a re-analysis of the deposited data

How the results depend on the processing

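No paired analysis was possible because there was 1 library per genotype. The number of the 10 genes called lower was 3 as deposited and stayed at 2 or 3 under every alternative. The share of all rows called lower was 11.3% as deposited and 14.3% with a pseudocount of 0.1 FPKM. It was 4.10% with a pseudocount of 5 FPKM and 9.96% among rows at 5 FPKM or more. The number called higher was 2 as deposited, 4 with a pseudocount of 0.1 FPKM, 1 with a pseudocount of 5 FPKM, and 1 among rows at 5 FPKM or more. The share of all rows called higher under the same 4 settings was 13.7%, 17.3%, 3.95% and 9.28%. The median log2 ratio of those that passed was 1.10 and 0.21 with those pseudocounts, 0.76 after rescaling to the same sum, and -3.33 at 5 FPKM or more, where fewer genes remained. The share of all rows called in either direction was 31.6% with a pseudocount of 0.1 FPKM, 8.06% with one of 5 FPKM and 19.2% at 5 FPKM or more. Rescaling to the same sum raised JAK2 V617F values above 0 by 0.18 in log2, and the upper quartile by 0.11, before the pseudocount. Ratios of genes low in the JAK2 V617F library moved less, and that of Prg2 not at all. Of 50 single ratios of the 10 genes under other pseudocounts and scalings, 45 kept their call and 5 did not. Of 105 list medians under the alternatives, 57 stayed within 0.1, and 4 changed sign, in 3 lists. At 5 FPKM or more, the ribonuclease list reversed to -2.24, where Rnase6 alone remained, the basophil list went to -0.14 and the eosinophil surface list to 0.06. With no filter on low values the eosinophil surface list was also at 0.06. Without a length offset the estimated fragments of Prg2 and Ear2 stayed within counting error.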
